A study of Mus musculus with 8 samples.

Results

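The matrix metalloproteinases (Mmp), their tissue inhibitors (Timp) and the ADAMTS proteases (Adamts) were followed through the cells of mouse colorectal tumour grafts in which host fibroblasts did or did not carry a deletion of Zeb1. Members were all gene symbols made of Mmp, Timp or Adamts and a number, with a trailing letter allowed for Mmp. This gave 45 genes (22 Mmp, 4 Timp and 19 Adamts) of 20275 symbols counted. Tumours had been grown from transplanted organoids of the AKP type in the cecum of 8 mice, and each mouse filled a plate of 384 wells for SORT-seq, in which sorted cells are placed 1 per well and the 3′ ends of transcripts are tagged with unique molecular identifiers (UMIs) for counting. The question put to these cells was what loss of ZEB1 in fibroblasts changes in each compartment of the tumour. The 4 FibCtrl mice were negative and the 4 FibΔZeb1 mice positive for a tamoxifen-inducible Cre, which the labels name Col1a1Cre-ERT2 and the methods of the study Col1a2-CreERT2. All 8 mice carried Zeb1 fl/fl alleles and received a tamoxifen diet, so the transgene is what separates the groups. The promoter of the Cre limits recombination to host cells that use it, and the tumour epithelium came from the grafted organoids, not from the host. The ages of the mice were not found in the sources used here.

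Mmp proteins are zinc-dependent proteases that cleave collagens, other matrix proteins and many signalling proteins. Most are secreted as inactive precursors, whereas Mmp14 and Mmp15 are anchored in the cell membrane. Timp proteins bind the active site of these enzymes and block it, and Timp2 also takes part in the activation of the Mmp2 precursor by Mmp14. Adamts proteases share the metalloproteinase fold and divide into enzymes that trim procollagen (Adamts2, Adamts3 and Adamts14), enzymes that cut large proteoglycans (such as Adamts1, Adamts4, Adamts5, Adamts9 and Adamts15) and others. In tumours, stromal and infiltrating immune cells are known as main sources of several of these proteins.

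Of 3072 wells, 1831 were kept, and 1155 were placed in a class by marker genes that include no member. The fibroblast-like class held 173 wells, the epithelial-like class 406, the neutrophil-like class 163 and the macrophage-like class 118, and these are called fibroblast, epithelial, neutrophil and macrophage wells here. A further 639 wells (34.9% of those kept) matched no class clearly. Median transcripts per well were 11873, 24193, 1954 and 10853 in the 4 classes. Levels are given as CPM, the transcripts of a gene per 1000000 transcripts of that class on that plate, without mitochondrial genes and spike-ins. Because 3′ tags were counted, CPM does not grow with the length of a gene. Fibroblast markers summed to a median of 55182 CPM in fibroblast wells, but to 790 in epithelial, 2291 in neutrophil and 1350 in macrophage wells, which gives the background beside which a member is read. Pooled over wells, the markers stood at 1.66% of the fibroblast level in epithelial, 3.70% in neutrophil and 2.25% in macrophage wells. Plates with fewer than 10 wells of a class were left out of its plate values, means and tests. Pooled levels, shares of wells or transcripts and cluster levels use the wells of all plates. FibCtrl 3 stood apart among the fibroblast plates: its 11 wells included none of the cluster led by Dpt and Sfrp4. Its mesothelial markers summed to 462 CPM against 96.2 to 424 on the other 5 plates used, and 80.5% of its Timp3 transcripts came from 1 well. In a cluster led by Slpi, Calca and Upk1b, of which Upk1b is a mesothelial marker here, lay 3 of its wells. The same cluster held 3 fibroblast wells of FibΔZeb1 4 and 1 of FibCtrl 1.

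The 9 members of the Mmp cluster lie side by side on mouse chromosome 9 (GRCm38, GENCODE M21), from 7272514 to 7699585, a stretch of 427072 bases that holds Mmp13, Mmp12, Mmp1b, Mmp3, Mmp10, Mmp8, Mmp27, Mmp20 and Mmp7. The other members are spread over the genome. Mmp2 lies at chr8:92827291-92853420, Mmp14 at chr14:54431612-54445364 and Mmp9 at chr2:164940780-164955850, and Adamts5 (chr16:85856173-85901828) lies beside Adamts1 (chr16:85793827-85803113). Timp1 (chrX:20870166-20874735), Timp3 (chr10:86300372-86349506) and Timp4 each overlap a synapsin gene on the opposite strand. The sources do not say if strand was used in counting, so reads of such partners cannot be told apart, but Syn1 and Syn3 were listed at means of only 5.27 and 0.40 CPM in fibroblast wells.

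The start sites of the chromosome 9 genes are shown because their motif content differed from that of the other members with a promoter window. The genes of this cluster were found in different cell classes. The AP-1 motif TGANTCA, read on either strand, was present in the 300 bases from 250 before to 50 after the start of 7 of the 9 cluster genes (Mmp13, Mmp12, Mmp1b, Mmp3, Mmp10, Mmp20 and Mmp7). It was found in none of the windows of the 22 other members that had one, and in 7.81% of all 32851 windows (RefSeq, GRCm38.p6). The remaining members, among them Mmp2, Mmp9 and Adamts5, had no window and were not searched. The stretches of 120 bases printed next run 5′ to 3′ on the plus strand from 100 bases before the start. They lie at chr9:7272414-7272533 (Mmp13), chr9:7347274-7347393 (Mmp12), chr9:7445722-7445841 (Mmp3), chr9:7502242-7502361 (Mmp10), chr9:7691990-7692109 (Mmp7) and chr9:7558329-7558448 (Mmp8), and capitals mark the AP-1 motif.
Mmp13: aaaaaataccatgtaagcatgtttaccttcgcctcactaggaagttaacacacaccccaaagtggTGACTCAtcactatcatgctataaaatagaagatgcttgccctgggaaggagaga
Mmp12: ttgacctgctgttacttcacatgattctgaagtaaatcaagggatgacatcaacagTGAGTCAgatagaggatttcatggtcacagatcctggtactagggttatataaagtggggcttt
Mmp3: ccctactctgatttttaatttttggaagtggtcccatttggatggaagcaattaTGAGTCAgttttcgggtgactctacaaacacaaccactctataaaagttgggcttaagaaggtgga
Mmp10: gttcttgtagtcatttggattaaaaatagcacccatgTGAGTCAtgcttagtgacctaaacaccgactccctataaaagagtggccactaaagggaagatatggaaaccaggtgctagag
Mmp7: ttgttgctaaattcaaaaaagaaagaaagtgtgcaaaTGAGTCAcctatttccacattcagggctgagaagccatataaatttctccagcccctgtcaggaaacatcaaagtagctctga
Mmp8: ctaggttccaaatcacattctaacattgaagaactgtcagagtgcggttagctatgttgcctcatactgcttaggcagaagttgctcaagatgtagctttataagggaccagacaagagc
The motif began 35 bases before the start in Mmp13, 44 in Mmp12 (at the second of its annotated starts), 46 in Mmp3 and 63 in both Mmp10 and Mmp7. The same letters were not in the window of Mmp8. The TATA box letters TATAAA, on the gene's strand, were in the windows of the same 7 cluster genes and of Adamts1 and Mmp21, which is 26.5% of the members' 34 windows against 8.32% of all windows. The E-box CACCTG, which ZEB1 is known to bind, was in 23.5% of the members' windows (those of Adamts17, Adamts20, Mmp10, Mmp15, Mmp20, Mmp7, Timp2 and Timp3) against 20.2% of all windows. GGGCGG, the GC box, was in 52.9% against 35.7%, and GAGGAA, the core bound by the myeloid factor PU.1, was in 17.6% against 28.3%, each on either strand. These matches describe letters only.

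Of the 45 members, 36 had at least 1 transcript in fibroblast wells, 41 in epithelial, 23 in neutrophil and 26 in macrophage wells, from 3426596, 12841593, 365384 and 1441031 transcripts. The 3 families differed in where they were found. Summed Mmp transcripts were 2285 ± 731 CPM in fibroblast wells (SD, n = 6 plates), 1376 ± 657 in neutrophil wells (n = 7), 951 ± 259 in macrophage wells (n = 5) and 251.5 ± 52.7 in epithelial wells (n = 8). Summed Timp transcripts were 4272 ± 3829 CPM in fibroblast wells, with 12100 on FibCtrl 3 and 2090 to 3090 on the other 5 plates, against 347 ± 34.5 in macrophage, 202 ± 61.9 in epithelial and 191 ± 91.8 in neutrophil wells. Summed Adamts transcripts were 1828 ± 881 CPM in fibroblast wells and 144.5 ± 36.6, 95.2 ± 70.2 and 35.4 ± 13.3 in epithelial, neutrophil and macrophage wells. Fibroblast wells had the highest mean of all 3 families, and their Mmp sums overlapped those of neutrophil wells.

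**Figure D1:**
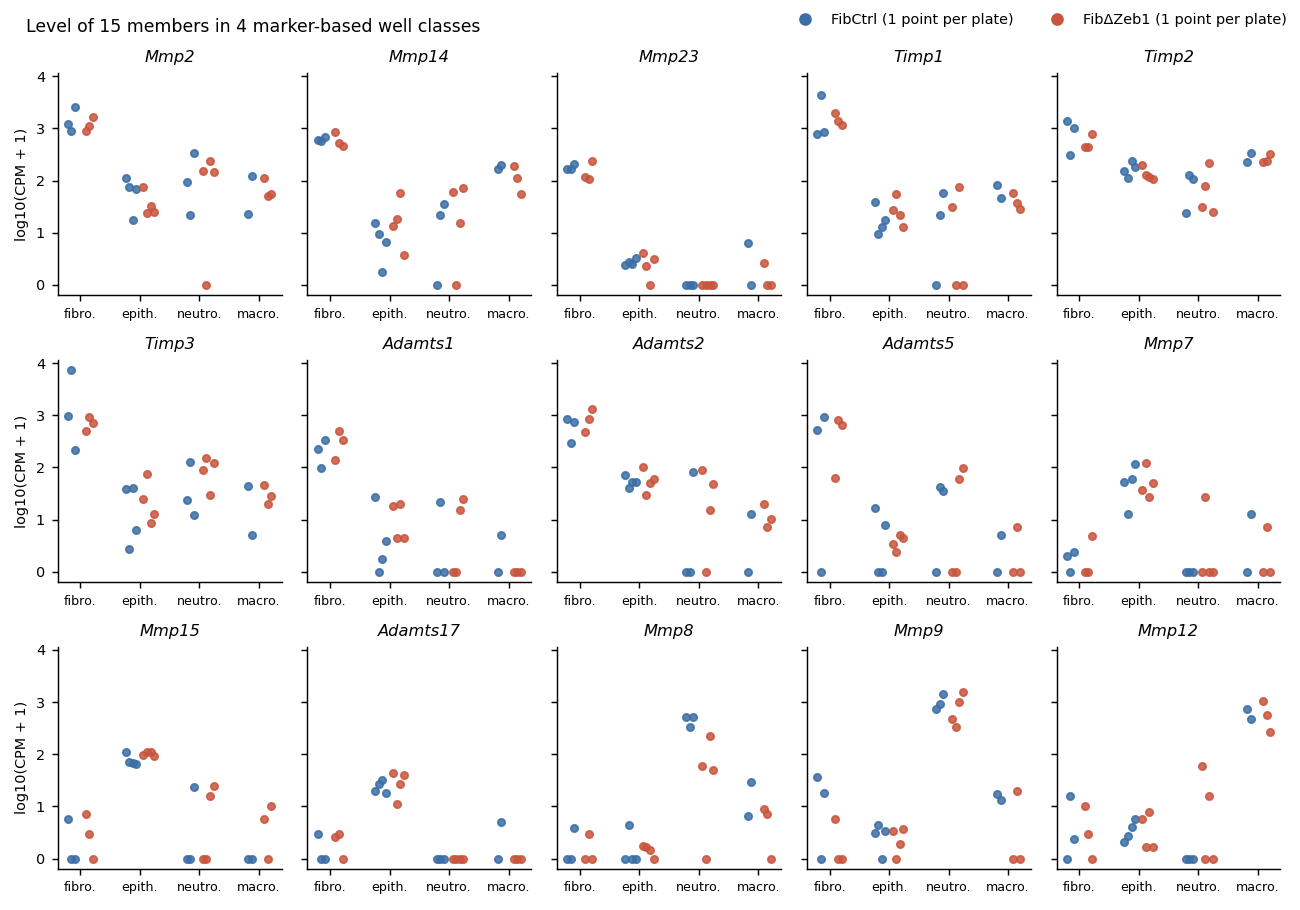
Level of 15 members in the wells of 4 cell classes, as log10(CPM + 1), with 1 point per plate (fibroblast n = 6, epithelial n = 8, neutrophil n = 7, macrophage n = 5). Mmp2, Timp1 and Adamts5 sit highest in fibroblast wells, Mmp7 and Mmp15 in epithelial wells, Mmp8 and Mmp9 in neutrophil wells and Mmp12 in macrophage wells.

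Classes were compared in an edgeR quasi-likelihood fit of summed counts with the plate as a block, each class against the mean of the other 3, and all adjusted p-values below are from this fit or its genotype counterpart with Benjamini-Hochberg adjustment over all genes tested. The filter on low counts took the class as its grouping, so a gene could enter this fit through a single class in which it is high. Of 8536 genes tested, 15 were members. Counts and medians of members in this comparison therefore describe those that passed the filter, not the whole family. In fibroblast wells 10 of these were higher and 5 lower, where 24.8% of all genes tested were higher and 16.8% lower. The median log2 difference of the members was 4.25, and that of all genes 0.10.

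Among the proteases of fibroblast wells, Mmp2, a gelatinase that degrades denatured collagen and basement membrane, had the highest level. It stood at 1210, 877 and 2560 CPM on FibCtrl 1, 3 and 4 and at 895, 1120 and 1680 CPM on FibΔZeb1 1, 3 and 4. Its log2 level was 4.28 ± 0.26 (SE) above the other classes (adjusted p = 6.63e-15). After wells had been thinned to 1000 transcripts, which left out 28 fibroblast, 11 epithelial, 13 neutrophil and 6 macrophage wells as too shallow, Mmp2 was found in 70.3% of the 145 fibroblast wells left, against 5.32% of 395 epithelial, 14.7% of 150 neutrophil and 8.04% of 112 macrophage wells. Without thinning it was found in 87.3% of the 173 fibroblast wells. Mmp14, the membrane-bound collagenase that activates Mmp2, was at 603, 575 and 680 CPM on the FibCtrl plates and 849, 519 and 450 CPM on the FibΔZeb1 plates, and its spread (612.5 ± 139 CPM, SD, n = 6) was small beside that of the other abundant members. It was higher than in the other classes by 4.25 ± 0.35 on the log2 scale (adjusted p = 6.387e-12). Mmp23, a small membrane protein with an unusual domain order, was at 106 to 238 CPM on the 6 plates. It had no transcript among 365384 in neutrophil wells, which allows up to 8.21 CPM (a count of 0 taken as up to 3 transcripts), and its log2 difference of 7.87 (adjusted p = 1.694e-14) therefore leans on a class at 0.

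The inhibitors Timp1 and Timp3 were at a mean of 1773 CPM each in fibroblast wells, and Timp2 at 725.5 CPM. The mean of Timp3 rested on FibCtrl 3, at 7310 CPM mostly from 1 well: without that plate Timp3 was at 665 ± 313 CPM (SD, n = 5), below Timp2 at 809 ± 393 CPM, and Timp1 at 1238 ± 488 CPM. Over all 14 kept wells of the Slpi and Upk1b cluster on FibCtrl 3, classed or not, Timp3 was at 5400 CPM and Timp1 at 3210 CPM. In the fibroblast wells of the cluster led by Spp1, Tnc and Tagln on that plate, Timp3 was at 610 CPM and Timp1 at 6250 CPM. Timp1 was at 768, 4450 and 862 CPM on the FibCtrl plates and 1990, 1390 and 1180 CPM on the FibΔZeb1 plates. Its log2 difference from the other classes was 5.79 ± 0.30 (adjusted p = 1.085e-16), and that of Timp3, an inhibitor that stays bound to the matrix, was 5.33 ± 0.30 (adjusted p = 5.514e-16). FibCtrl 3 had the highest value of both genes. Timp2 differed less, by 2.18 ± 0.27 (adjusted p = 5.098e-08), and its level in other classes was 152.8 ± 46.5 CPM in epithelial (n = 8) and 269.5 ± 50.8 CPM in macrophage wells (n = 5). Mmp2, Mmp14 and Timp2, the members of the activation complex, were all found in 120 of 173 fibroblast wells (69.4%), in 33.9% of macrophage, 14.3% of epithelial and no neutrophil wells, at the unequal depths given above.

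Of the Adamts genes, Adamts2, a procollagen N-proteinase, was at 849, 287 and 741 CPM on the FibCtrl plates and 481, 859 and 1300 CPM on the FibΔZeb1 plates of fibroblast wells. Adamts5 and Adamts1, neighbours on chromosome 16 that both cut proteoglycans, had means of 491 ± 382 and 269 ± 146 CPM (SD, n = 6). Adamts5 ran from 0 on FibCtrl 3 and 60.8 on FibΔZeb1 1 to 909 on FibCtrl 4. The log2 differences from the other classes were 4.78 ± 0.28 for Adamts2, 5.94 ± 0.36 for Adamts5, 5.97 ± 0.43 for Adamts1 and 3.39 ± 0.50 for the proteoglycan-cutting Adamts9, with adjusted p between 2.394e-15 and 9.715e-07. Of all Adamts5 transcripts in the data, 74.9% were in fibroblast wells, which held 13.3% of all transcripts. The 5 members lower in fibroblast wells were Mmp8, Mmp12, Mmp7, Mmp15 and Mmp9, by log2 differences from -3.08 to -1.33.

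Epithelial wells, whose markers do not tell organoid-grown epithelium from that of the host, held transcripts of most members but at low levels. There, 2 of 15 members were higher and 9 lower, where 36.9% of all genes tested were higher and 20.1% lower. Mmp7 (matrilysin, a protease typical of intestinal epithelium and its tumours) was higher by 4.48 ± 0.39 on the log2 scale (adjusted p = 3.28e-11), and the membrane-bound Mmp15 by 4.02 ± 0.33 (adjusted p = 6.341e-12). Epithelial wells held 93.5% of all Mmp7 and 92.0% of all Mmp15 transcripts, against 49.8% of the transcripts of all genes. Mmp15 spread little between plates, at 65.6 to 109 CPM on the 4 FibCtrl and 93.9 to 111 CPM on the 4 FibΔZeb1 plates. Mmp7 was at 52.3, 12.1, 58.9 and 115 CPM on FibCtrl 1 to 4 and at 36.3, 123, 25.9 and 48.7 CPM on FibΔZeb1 1 to 4. Adamts17, which was not tested in this fit, had 80.5% of its transcripts in epithelial wells, at 10.1 to 42.6 CPM. Pooled over plates, Mmp7 was at 40.7, 84.6 and 65.9 CPM in the epithelial Leiden clusters led by Rspo3, Reg4 and Tgm3. The plates that fill these clusters differ, with 39 of the 96 wells of the Rspo3 cluster from FibCtrl 1 and 32 from FibΔZeb1 1, and Mmp7 ran from 11.7 to 50.1 CPM between plates within the Rspo3 cluster, from 1.65 to 203 within the Reg4 cluster and from 37.4 to 122 within the Tgm3 cluster, so no order of the clusters is read from the pooled values. On FibΔZeb1 2, 84 of 182 Mmp7 transcripts came from 1 well. No Mmp7 transcript was seen among 358498 in the 29 wells of the cluster led by Lypd8 and Guca2a, of which 25 came from FibΔZeb1 2, and a count of 0 taken as up to 3 transcripts allows 8.37 CPM there. Mmp15 was at 103, 70.7, 107 and 151 CPM in the same 4 clusters, also pooled over plates. Mmp2, at 53.0 ± 34.2 CPM, stood at 3.75% of its fibroblast level, beside the 1.66% of the fibroblast markers, and Timp2 at 17.8%. The lower members by at least 3 on the log2 scale were Mmp9, Mmp8, Mmp14 and Adamts5, from -5.09 to -3.03.

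Neutrophil wells were marked by the proteases of neutrophil granules. Mmp9, the larger gelatinase, was at 737, 917 and 1410 CPM on FibCtrl 2, 3 and 4 and at 478, 335, 1020 and 1590 CPM on FibΔZeb1 1 to 4. Mmp8, the neutrophil collagenase, was at 507, 334 and 518 CPM on the FibCtrl plates and at 59.7, 0, 220 and 48.1 CPM on the FibΔZeb1 plates. Against the other classes Mmp9 was higher by 7.77 ± 0.34 (adjusted p = 1.548e-18) and Mmp8 by 6.60 ± 0.45 (adjusted p = 1.99e-13). These were the 2 members called higher, with 3 lower (Timp1, Timp2 and Mmp14), where 14.3% of all genes tested were higher and 26.5% lower. At 1000 transcripts per well, Mmp9 was found in 45.3% and Mmp8 in 10.0% of neutrophil wells. The wells fell into 2 clusters. In the 68 wells led by S100a8, S100a9, Retnlg and Camp, genes of neutrophils fresh from the marrow, Mmp8 was at 495 CPM (95% Poisson interval 398 to 608) and Mmp9 at 759 CPM (637 to 896). In the 95 wells led by Ccl3, Il1r2, G0s2 and Cxcl3, Mmp8 was at 65.4 CPM (33.8 to 114) and Mmp9 at 1230 CPM (1070 to 1400). Such intervals cover counting error only, and the plates did not all follow these pooled values. Of the 90 Mmp8 transcripts in the S100a8 cluster, 57 came from 2 wells, and without these wells Mmp8 was at 199 CPM there. On FibΔZeb1 3, Mmp8 was at 226 CPM in the S100a8 and 215 CPM in the Ccl3 cluster. Mmp9 was higher in the S100a8 cluster on FibCtrl 2 (937 against 384 CPM) and FibΔZeb1 1 (570 against 411 CPM), and lower on FibCtrl 3 and 4 (834 and 1290 against 1390 and 1480 CPM) and on FibΔZeb1 2, 3 and 4 (272, 641 and 399 against 528, 1270 and 1960 CPM). Mmp2, Timp2, Timp3 and Adamts2, the next most abundant, had means of 139, 86.1, 79.0 and 33.3 CPM, and Mmp2 stood at 11% of its fibroblast level beside 3.70% for the fibroblast markers.

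Macrophage wells were set apart by Mmp12, the macrophage elastase. It was at 742 and 482 CPM on FibCtrl 3 and 4 and at 1040, 573 and 272 CPM on FibΔZeb1 1, 3 and 4, and was higher than in the other classes by 6.91 ± 0.28 (adjusted p = 7.845e-19). These levels depend on which wells count as macrophages, since 51.1% of all Mmp12 transcripts were in macrophage wells and 45.4% in wells that matched no class. Over all kept wells of the cluster led by Lyz1 and C1qa, classed or not, Mmp12 was at 808 and 1560 CPM on FibCtrl 3 and 4 and at 1040, 2230 and 270 CPM on FibΔZeb1 1, 3 and 4. At 1000 transcripts per well it was found in 20.5% of macrophage wells and 0.253% of epithelial wells, and 5 wells held 49.4% of its transcripts. Mmp14 was the other member called higher, by 1.38 ± 0.43 (adjusted p = 0.01457), at 144 ± 61.3 CPM (n = 5). This call was lost without FibCtrl 3, FibCtrl 4 or FibΔZeb1 1 (adjusted p = 0.0674, 0.091 and 0.0695), with DESeq2 (0.097) and with stricter marker limits (0.101), while the log2 difference stayed between 1.07 and 1.71 in all alternatives run. Another 6 members were lower, where 20.1% of all genes tested were higher and 9.77% lower. Mmp14 and Timp2 stood at 27.3% and 30.9% of their pooled fibroblast levels, well above the 2.25% of the fibroblast markers. Adamts1, Adamts5 and Adamts2 were lower by 4.80, 4.17 and 3.33 on the log2 scale. In the 97 macrophage wells of the cluster led by Lyz1 and C1qa, Mmp12 was at 792 CPM (743 to 843) and Timp2 at 235 CPM (209 to 264). In the 15 wells of the cluster led by Saa3 and Alox15, Mmp12 was at 6.6 CPM from 1 transcript (0.167 to 36.8) and Timp2 at 581 CPM (466 to 715). These values are pooled over plates, and 9 of the 15 wells came from FibCtrl 3, the only plate with at least 5 of them. On FibCtrl 3 Timp2 was lower in the Saa3 than in the Lyz1 cluster (222 against 277 CPM), and Mmp12 was at 0 against 779 CPM. Mmp13, a collagenase, was at 4.83 to 16.2 CPM on 4 plates and at 308 CPM on FibΔZeb1 4, where 88.3% of its transcripts came from 1 well. Over all kept wells of the Lyz1 cluster it was also high on FibCtrl 4, at 186 CPM from 43 transcripts, beside 296 CPM on FibΔZeb1 4.

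Most of the 173 fibroblast wells fell into 2 clusters, made without any member, in which the members stood at different levels. The cluster led by Spp1, Tnc and Tagln, genes of contractile and matrix-remodelling fibroblasts, held 61 wells. The cluster led by Dpt, Sfrp4, Ptx3, Lbp, Htra3 and Dcn held 67, and Dcn is also a marker of the fibroblast class here. A further 33 wells (19.1%) were in a shallow cluster led by Svs5, Svs2, Xirp2 and Acta1, with a median of 827 transcripts, where Mmp2 was at 1030 CPM (724 to 1420), Timp1 at 640 CPM (405 to 960) and Timp3 at 584 CPM (361 to 893). These 3 values come from 37, 23 and 21 transcripts. Of the 187 kept wells of this cluster, 39 were classed epithelial and 1 macrophage, and the cluster as a whole was given no class. Levels in the next sentences are pooled over plates. Timp1 was at 1940 CPM (1870 to 2020) in the Spp1 cluster and 650 CPM (613 to 688) in the Dpt cluster, and Mmp14 at 830 CPM (783 to 878) and 549 CPM (515 to 584). Mmp2 went the other way, at 731 CPM (688 to 777) in the Spp1 and 2200 CPM (2130 to 2270) in the Dpt cluster. Timp2 was at 292 and 1330 CPM, Adamts5 at 105 and 908 CPM, Adamts15 at 4.89 and 108 CPM, Mmp3 at 6.29 and 36.9 CPM, Mmp11 at 20.3 and 58.3 CPM and Mmp23 at 87.4 and 212 CPM, in each case lower in the Spp1 cluster. Adamts2 was at 579 and 962 CPM, Adamts1 at 192 and 345 CPM and Timp3 at 652 and 638 CPM. Mmp9 was at 37.1 CPM in the Spp1 and 1.65 CPM in the Dpt cluster, but 5 wells held 75.5% of its 57 transcripts in fibroblast wells.

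Mmp2, Timp1, Timp2 and Adamts5 had the same direction on the 3 plates on which both clusters had at least 5 wells. On FibCtrl 1, FibCtrl 4 and FibΔZeb1 3, Mmp2 was at 456, 668 and 712 CPM in the Spp1 cluster and at 1750, 2840 and 1560 CPM in the Dpt cluster. Timp1 was at 1330, 1980 and 1920 CPM in the Spp1 and 406, 717 and 821 CPM in the Dpt cluster of these plates. Adamts5 was at 164, 35.7 and 140 CPM against 767, 1040 and 1560 CPM, and Timp2 at 426, 131 and 165 CPM against 2060, 1150 and 743 CPM. Mmp14 did not follow on every plate: it was higher in the Spp1 cluster on FibCtrl 1 (912 against 409 CPM), close on FibCtrl 4 (715 against 683 CPM) and lower on FibΔZeb1 3 (441 against 604 CPM). The pooled values of Timp3 hide differences in both directions, since Timp3 was at 1210, 119 and 235 CPM in the Spp1 cluster and at 817, 227 and 1710 CPM in the Dpt cluster of these plates. Adamts2 was lower in the Spp1 cluster on each of them, at 746, 238 and 489 CPM against 961, 820 and 1270 CPM. Adamts1 turned round on FibCtrl 4, where the Spp1 cluster held 802 CPM and the Dpt cluster 275 CPM, and was at 90.4 and 369 CPM against 319 and 619 CPM on FibCtrl 1 and FibΔZeb1 3. Mmp11 was close on FibCtrl 1, at 34.2 against 30.6 CPM. Cluster differences are descriptions without a test.

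**Figure D2:**
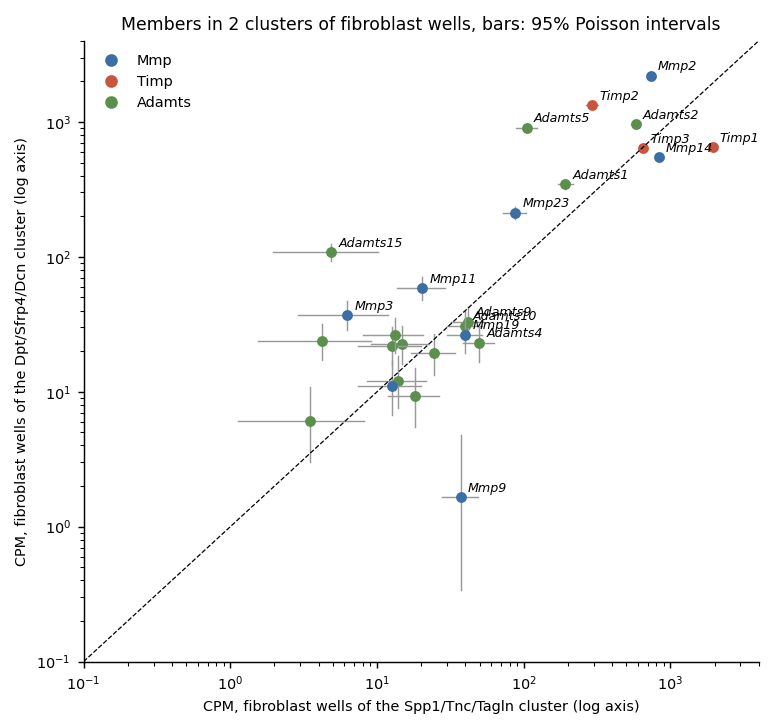
Level of each member with at least 10 transcripts over the 2 clusters and at least 1 in each, in fibroblast wells of the Spp1 cluster (61 wells) against the Dpt cluster (67 wells), in CPM pooled over plates on log axes, with bars for the 95% Poisson interval and a dashed line where both are equal. Timp1 and Mmp14 lie on the side of the Spp1 cluster, whereas Mmp2, Timp2, Adamts5 and Adamts15 lie on the side of the Dpt cluster.

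The mixture of these clusters differed between plates, with 26 of 61, 0 of 11 and 21 of 37 fibroblast wells in the Dpt cluster on FibCtrl 1, 3 and 4 and 2 of 24, 6 of 13 and 9 of 20 on FibΔZeb1 1, 3 and 4. The plates with none or few such wells, FibCtrl 3 and FibΔZeb1 1, were also those with the lowest Adamts5 and Adamts15. The part of this mixture in the values by genotype was not tested.

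Between genotypes, no member was called in fibroblast wells (3 FibCtrl against 3 FibΔZeb1 plates, edgeR). Of 7141 genes tested 0 were called (0.0%), with 225 genes at an unadjusted p under 0.05, and DESeq2 called 1 gene. Of the 19 members tested, 0 had an unadjusted p under 0.05. There were 8 above and 11 below 0, with a median log2 difference (FibΔZeb1 minus FibCtrl) of -0.21 against -0.000154 for all genes. The plates of the genotypes overlapped for all 19, where 7.98% of all genes tested did not overlap. Zeb1 itself was at 94.2, 30.2 and 83.6 CPM in FibCtrl and 46.8, 48.0 and 26.9 CPM in FibΔZeb1 fibroblast wells, and these overlap. A 3′ count need not cover the deleted part of the gene, so it does not check the deletion. The study itself reports Zeb1 deletion in the colon of its mice in genomic DNA and protein. It also reports a genotype difference in ZEB1 staining of the stroma of AKP tumours.

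Among the abundant members, Mmp14 and Mmp2 had log2 differences of -0.04 ± 0.31 and -0.34 ± 0.45 (SE), Timp2 of -0.70 ± 0.53, Adamts2 of 0.48 ± 0.49 and Adamts5 of 0.06 ± 1.195, all with an adjusted p of 1.0. With such errors the 6 plates bound the difference of Mmp14 far more closely than that of Adamts5, and a p that misses the threshold does not show that the genotypes were alike. Timp1 was at -0.40 ± 0.65 with all plates, and at 0.88 without FibCtrl 3, so its direction rested on that plate. Timp3, at 961, 7310 and 214 CPM in FibCtrl and 507, 936 and 708 CPM in FibΔZeb1, was at -1.97 ± 1.02, and at 0.26 without FibCtrl 3.

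The remaining members with the largest differences were low and uneven. Mmp3, stromelysin 1, was at 20.4, 0 and 55.3 CPM in FibCtrl and 0, 1.92 and 23.1 CPM in FibΔZeb1, a log2 difference of -2.43 ± 1.17, and 84.7% of its transcripts on FibCtrl 4 came from 1 well. Mmp11, a stromal Mmp that is activated inside the cell, was at 34.0, 0 and 99.2 CPM against 12.5, 13.4 and 26.9 CPM (-1.66 ± 0.80). Adamts9 was at 27.2, 52.9 and 11.3 CPM against 65.5, 26.9 and 92.3 CPM (1.24 ± 0.61). Mmp19 was at 7.77, 0 and 41.1 CPM against 12.5, 99.9 and 26.9 CPM (1.23 ± 0.93). Adamts15 was at 53.4, 0 and 157 CPM against 1.56, 25 and 127 CPM (-0.85 ± 1.16). The genotypes overlapped for each of these 5 genes and each had an adjusted p of 1.0.

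**Figure D3:**
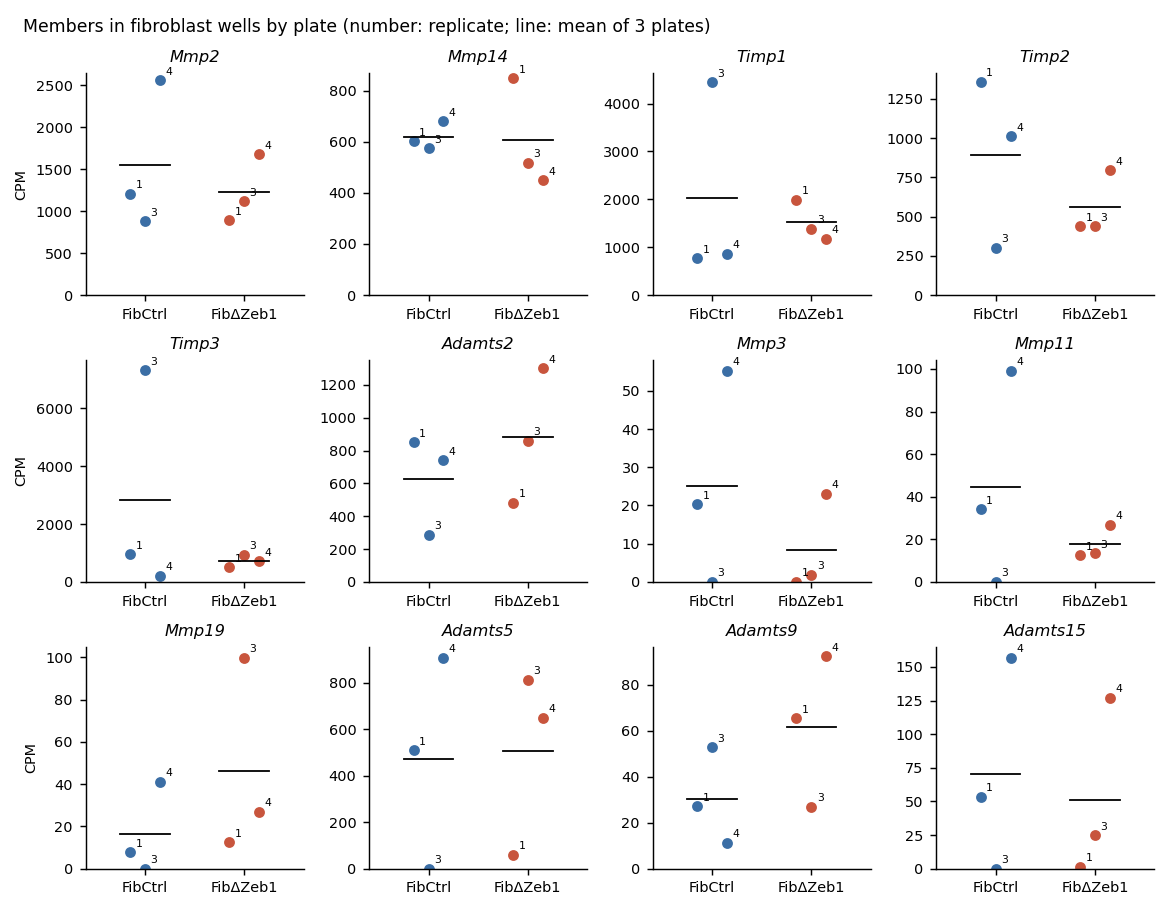
Level of 12 members in fibroblast wells by plate, in CPM on linear axes, with 1 point per plate (FibCtrl 1, 3 and 4, FibΔZeb1 1, 3 and 4) and a line at the mean of each genotype. The points of the genotypes overlap for every member, and the FibCtrl 3 point stands far above the others for Timp1 (4450 CPM) and Timp3 (7310 CPM).

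In epithelial wells, with 4 plates per genotype, 0 of 13 members and 0 of 10255 genes were called by edgeR (0.0%), with 173 genes at an unadjusted p under 0.05 and 1 gene called by DESeq2. The log2 differences were 0.37 ± 0.21 for Mmp15, -0.02 ± 0.59 for Mmp7, -0.29 ± 0.27 for Timp2, 0.17 ± 0.37 for Adamts2, 0.35 ± 0.43 for Adamts17 and -0.84 ± 0.57 for Mmp2, each with an adjusted p of 0.9996. No member was free of overlap between genotypes, where 1.21% of all genes tested were.

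In neutrophil wells, 1 of 801 genes was called (0.125%) and neither of the 2 members tested was. Mmp9 differed by -0.27 ± 0.48 (adjusted p = 0.9517). Mmp8, the values of which are given above, was lower on each of the 4 FibΔZeb1 plates than on any of the 3 FibCtrl plates, where 6.37% of all genes tested did not overlap, and differed by -2.27 ± 0.66 (unadjusted p = 0.005029, adjusted p = 0.5849, edgeR). Without the filter on low counts it was at -2.40 with an adjusted p of 0.01853. Over all 19 alternatives it stayed below 0, from -3.59 to -1.41, with adjusted p from 0.01853 to 0.9843. The counts are small, however, and single wells weigh in them: 20 of 22 Mmp8 transcripts on FibCtrl 2 and 37 of 45 on FibCtrl 4 came from 1 well each. Wells with any Mmp8 transcript were 3 of 17, 6 of 20 and 6 of 32 on FibCtrl 2, 3 and 4. On FibΔZeb1 1 to 4 they were 2 of 14, 0 of 17, 7 of 34 and 2 of 27. These shares overlap between genotypes, and the separation of the CPM values leans on those single wells. Within flow cell 1, Mmp8 was at 507 CPM on FibCtrl 2 against 59.7 and 0 on FibΔZeb1 1 and 2, and within flow cell 2 at 334 and 518 against 220 and 48.1 CPM. The 8 neutrophil markers summed to 86500, 103000 and 58600 CPM on FibCtrl 2, 3 and 4 and to 39000, 56900, 45700 and 27500 CPM on FibΔZeb1 1 to 4, so these sums did not overlap between genotypes either. Among the FibCtrl plates, FibCtrl 4 had the lowest sum and the highest Mmp8, and FibCtrl 3 the reverse. Among the FibΔZeb1 plates, FibΔZeb1 2 had the highest sum and no Mmp8 transcript. With so few plates and Mmp8 counts that lean on single wells, nothing is read from these orders. The share of wells in the S100a8 cluster overlapped between genotypes (7 of 17, 15 of 20 and 10 of 32 against 5 of 14, 11 of 17, 13 of 34 and 6 of 27). In that cluster Mmp8 was at 794, 393 and 1350 CPM on the FibCtrl and at 71.2, 0, 226 and 200 CPM on the FibΔZeb1 plates. The part of the marker level and of the mixture of clusters in the Mmp8 difference was not tested. A lower share of cells with Mmp8 and less Mmp8 per cell cannot be told apart here.

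**Figure D4:**
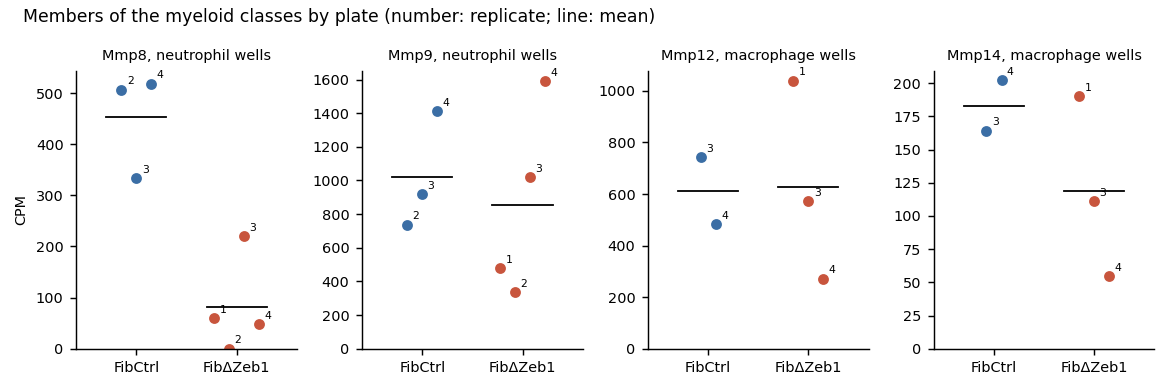
Level of Mmp8 and Mmp9 in neutrophil wells and of Mmp12 and Mmp14 in macrophage wells by plate, in CPM, with 1 point per plate and a line at the mean of each genotype. Mmp8 is at 334 to 518 CPM on the 3 FibCtrl plates and 0 to 220 CPM on the 4 FibΔZeb1 plates, whereas the plates overlap for the other 3 genes. Most Mmp8 transcripts on FibCtrl 2 and on FibCtrl 4 came from 1 well each.

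In macrophage wells (2 FibCtrl against 3 FibΔZeb1 plates), 0 of 5 members and 0 of 3823 genes were called by edgeR (0.0%), with 171 genes at an unadjusted p under 0.05 and 4 called by DESeq2. Mmp12 differed by 0.11 ± 0.49, Mmp14 by -0.45 ± 0.43, Timp1 by -0.43 ± 0.52, Timp2 by -0.07 ± 0.32 and Mmp2 by 0.15 ± 0.60. The direction of Mmp12 turned to -0.51 with the flow cell in the fit. Mmp13 was called only without the filter on low counts (2.52, adjusted p = 0.03911), and that value rests on the 1 well of FibΔZeb1 4 named above.

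**Figure D5:**
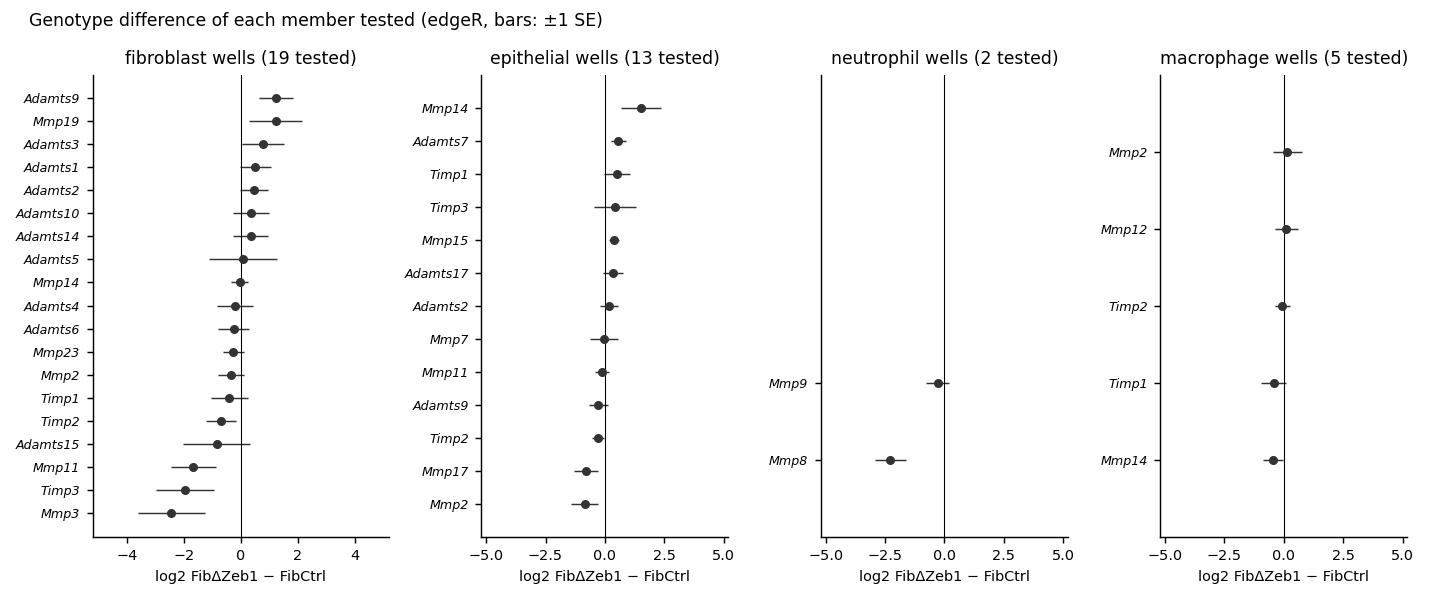
Log2 difference in level (FibΔZeb1 minus FibCtrl) with its SE for each member tested in fibroblast (19), epithelial (13), neutrophil (2) and macrophage (5) wells. None passed an adjusted p of 0.05, and Mmp8 in neutrophil wells (-2.27 ± 0.66) lies farthest from 0 relative to its error.

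A list of 35 other genes of extracellular and lysosomal proteolysis and its control was read beside the members. In fibroblast wells 28 of them entered the class comparison, and 18 were higher and 5 lower than in the other classes. Of all genes tested there, 24.8% were higher and 16.8% lower. The listed genes passed the same filter, so they could enter through a single class in which they are high. Among those with the highest means were the lysosomal protease Ctsb, the serine protease Htra3, the endocytic receptor Lrp1 that clears proteases, the lysosomal protease Ctsl and Bsg, a membrane protein known to induce Mmp genes, at means of 1303, 1039, 888, 594 and 529 CPM. Between genotypes 0 of 30 tested were called in fibroblast wells, 0 of 21 in epithelial, 0 of 7 in neutrophil and 0 of 15 in macrophage wells. Of all genes tested, 0.0%, 0.0%, 0.125% and 0.0% were called in these classes. The protease Dpp4 at -2.16, the proprotein convertase Pcsk6 at -2.62 and Adamtsl5 at -1.54 had an unadjusted p under 0.05 in fibroblast wells but were not called, and of these Pcsk6 passed the edgeR threshold without the filter on low counts (-2.62, adjusted p = 0.04551).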

How the data were processed

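Per the labels and the published methods, cells were sorted into 384-well plates through fibroblast (CD45, CD31 and EPCAM negative), EPCAM-positive and CD45-positive gates, prepared by CEL-Seq2-type chemistry and aligned to the mouse transcriptome of GRCm38. The submitters' processing notes name BWA and Cell Ranger 2.1.1. The deposited values are estimated counts, for which the authors corrected UMI numbers for collisions without scaling them to depth (86.3% of nonzero values are exactly whole, with a tolerance of 0). Cell transcripts per plate ran from 981881 (FibCtrl 2) to 5905188 (FibCtrl 1). Sort gates of single wells were not used here. A gene that is not listed for a plate was taken as 0.

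A well was kept with at least 500 transcripts and a mitochondrial share within 3 median absolute deviations above the plate's median. A well joined a class when its scaled marker score was at least 0.3, exceeded the next class by 0.2 and rested on at least 3 markers, and 398 wells lay within 0.05 of a limit. These limits were set after the marker scores, but not the members, had been seen. Fibroblast wells with at least 2 transcripts of Ptprc or Epcam were removed (37 wells). Wells received 1 sorted cell, so no doublet caller was run. Leiden clusters (scanpy 1.11.5, leidenalg 0.10.2, Python 3.11.15) used 2000 genes without members.

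Counts were summed per class and plate, which is 1 mouse, and rounded to whole numbers. They were tested with edgeR 4.0.16 (R 4.3.3; TMM, filterByExpr, quasi-likelihood, Benjamini-Hochberg, threshold 0.05), with DESeq2 1.42.0 as an alternative. The SE of a log2 difference was not estimated directly. It is the absolute difference divided by the square root of its quasi-likelihood F statistic. For its single-cell data the study tested between cells, and cells are not replicates. The scripts were tested on simulated data. CPM is over all cell transcripts of a class. Alternatives were other scaling, no filter, other limits on wells, mitochondrial share and markers, Leiden classes, the flow cell, the replicate number as a block and each plate left out. The looser and stricter marker limits, and keeping wells with Ptprc or Epcam in the other classes' fits, were chosen after seeing the data. Named members were, per class, the 6 with the highest mean CPM, those past the threshold by at least 3 on the log2 scale in the class contrast, those past the threshold between genotypes, and the 6 with the largest genotype difference in fibroblast wells. Other members named in the text were chosen after their values were seen, as were the clusters described. The members, lists and tests were chosen with earlier results of these data known. Promoter windows are RefSeq's, found for 31 of the 45 members. 1 gene of the related list is not reported here.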

Additional observations from a re-analysis of the deposited data

Results flagged for a closer look

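Within a genotype, the plates of members named in epithelial or neutrophil wells were searched for 1 that lay apart from the other 3, by Dixon's 95% limit, in 26 groups of 4 plates. Chance alone marks about 1 in 20 such groups. In epithelial wells, Mmp15 was at 109 CPM on FibCtrl 1, against 65.6 to 70.7 CPM on the other FibCtrl plates. Mmp2 in epithelial wells was at 74.9 CPM on FibΔZeb1 1, against 22.9 to 30.9 CPM on the other FibΔZeb1 plates. Mmp8 in epithelial wells was at 3.45 CPM on FibCtrl 2, the shallowest plate, and at 0 on the other FibCtrl plates. With those plates at 0, any Mmp8 value above 0 would be marked, and Mmp8 had only 5 transcripts in all epithelial wells. The causes of these marks were not tested.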

How the results depend on the processing

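Over 24 genotype differences of named members, 411 of 449 alternatives kept the direction and the side of the threshold, and 265 of 302 alternatives kept the counts of genes or members called. No member was called in fibroblast or epithelial wells under any alternative. The cause of each change listed next was not tested. Here and in the next paragraph, counts of members are listed without the share of all genes called in the same setting. They show how far the counts moved and are not a result about the family. Without the filter on low counts, genes called between genotypes were 41 in fibroblast, 20 in neutrophil and 45 in macrophage wells, members called were 1 in neutrophil (Mmp8) and 1 in macrophage wells (Mmp13), and members set apart by class were 26 higher in fibroblast, 5 higher in epithelial and 10 lower in macrophage wells. DESeq2 called 1, 1 and 4 genes between genotypes in fibroblast, epithelial and macrophage wells, and 1 member higher in macrophage wells. With stricter marker limits the genes called were 1 in fibroblast and 81 in macrophage wells, and the members 19 higher and 2 lower in fibroblast, 4 higher in epithelial and 1 higher in macrophage wells. Leiden classes called 1 gene in fibroblast wells. The flow cell as a covariate called 2 genes in neutrophil wells. Plates with at least 5 wells gave 3 members lower in fibroblast and 1 higher in epithelial wells, and no mitochondrial filter gave 3 lower in fibroblast wells.

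Leaving out 1 plate at a time, genes called ran from 1 to 7 in neutrophil wells (7 without FibCtrl 2, 3 without FibCtrl 4, 2 without FibΔZeb1 2) and from 0 to 2 in macrophage wells (2 without FibCtrl 3 or FibCtrl 4, 1 without FibΔZeb1 4). Members lower in fibroblast wells ran from 3 to 5 (3 without FibCtrl 4 or FibΔZeb1 2), members higher in epithelial wells from 1 to 4 (1 without FibCtrl 1, 4 without FibCtrl 3) and in macrophage wells from 1 to 2 (1 without FibCtrl 3, FibCtrl 4 or FibΔZeb1 1). Log2 differences that changed sign ran from -0.78 to 0.88 for Timp1, -2.52 to 0.26 for Timp3, -0.34 to 0.12 for Mmp14, -0.65 to 0.22 for Mmp2, -2.67 to 0.29 for Adamts15 and -0.11 to 2.81 for Mmp19 in fibroblast wells, from -0.70 to 0.44 for Mmp7 and -0.26 to 0.40 for Adamts2 in epithelial wells, from -0.51 to 0.49 for Mmp12, -0.54 to 1.86 for Mmp2, -0.85 to 0.068 for Timp1 and -0.29 to 0.18 for Timp2 in macrophage wells, and from -0.70 to 0.018 for Mmp9 in neutrophil wells. The plate whose absence turned the sign was FibCtrl 3 for Timp1 and Timp3 in fibroblast and Timp1 and Mmp2 in macrophage wells, FibCtrl 4 for Mmp2, Mmp14 and Adamts15 in fibroblast, Mmp7 in epithelial, Mmp9 in neutrophil and Mmp12 and Timp2 in macrophage wells, FibΔZeb1 1 for Adamts2 and Mmp7 in epithelial and Mmp12 and Timp2 in macrophage wells, FibΔZeb1 3 for Mmp14 and Mmp19 in fibroblast, Mmp7 in epithelial and Timp2 in macrophage wells, and FibΔZeb1 4 for Mmp14 in fibroblast and Mmp7 in epithelial wells.

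Other settings also changed signs. In fibroblast wells Timp1 was at 0.95 and Timp3 at 0.10 with Leiden classes, Timp1 at 0.78 with stricter limits and Mmp14 at 0.27 with at least 5 wells per plate. In epithelial wells Mmp7 was at 0.0025 with DESeq2 and 0.0053 with at least 250 transcripts per well. In macrophage wells Mmp2 was at -0.35 with at least 5 wells per plate, -0.67 with Leiden classes and -0.48 with looser limits, and with the flow cell as a covariate Mmp2 was at -0.49, Mmp12 at -0.51 and Timp2 at 0.021. Deviations of same-numbered plates correlated at 0.019 to 0.198 in fibroblast (3 pairs), 0.0633 to 0.549 in epithelial (4 pairs; 0.549 for replicate 1), -0.0353 to 0.403 in neutrophil (3 pairs) and -0.0958 to -0.0879 in macrophage wells (2 pairs). In no class with 3 or more pairs did every pair exceed 0.1, so the numbers were not taken to pair the plates, although 3 of 6, 6 of 8, 4 of 6 and 0 of 4 plates of the 4 classes correlated best with their own number. With the replicate block Timp1 was at 0.085 in fibroblast wells, and Mmp12, Mmp2 and Timp2 at -0.56, -0.18 and 0.036 in macrophage wells, where 1 gene was called, and the block changed no other call.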

Other observations

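Smaller classes, which entered no test, also held members. In 21 wells with pericyte-type (mural) markers, Mmp14 was at 1230 CPM (95% Poisson interval 1120 to 1340), Adamts2 at 1100 CPM (995 to 1200) and Adamts1 at 465 CPM (401 to 537), whereas Mmp2 was at 270 CPM (222 to 326). In 9 wells with mesothelial markers, Timp1 was at 3210 CPM (3020 to 3410) and Timp3 at 2750 CPM (2580 to 2940). The wells are pooled over plates, and the intervals cover counting error only.

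Some members were found mostly outside the 4 classes. Of all Mmp10 transcripts, 76.6% were in wells that matched no class, and among kept wells 55.9% were in the epithelial cluster led by Rspo3 and 28.0% in that led by Reg4. Of all Mmp3 transcripts, 59.4% were in the fibroblast-like wells removed for Ptprc or Epcam transcripts, where 123 transcripts came from 5 wells, and 36.8% were in fibroblast wells.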
